A study of Rattus norvegicus with 4 samples.

Results

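The genes examined here encode voltage-gated sodium, calcium and potassium channels, the other potassium channels and their auxiliary subunits. They were taken by symbol, as every gene whose single platform symbol begins with Kcn, with Scn and a digit, or with Cacn. This gave 111 of the 14217 genes named on the array (75 potassium, 12 sodium and 24 calcium channel genes). A gene with several probe sets is given by the one with the highest mean of the 4 arrays. The cells were neurospheres, floating clusters grown from dissociated retina of Sprague Dawley rat embryos at embryonic day 18. One condition was grown with epidermal growth factor (EGF) alone (EGF, 2 arrays). The other received, besides EGF, endothelial cell conditioned medium (ECCM, called conditioned medium below, 2 arrays). EGF was therefore present in both conditions. Per the series description the retinal cells of 10 embryos were pooled, and a further pool of embryos served for the replicate of each condition, so a replicate stands for a pool and not for an animal. Of 4 retina and progenitor genes tested, Pax6 was high in both conditions (means of 12.7 log2 under EGF and 12.8 log2 under conditioned medium as deposited, n = 2 per group). So were Rax (11.6 and 11.7 log2) and Sox2 (11.2 and 11.6 log2), and Six3 was lower on the array (6.50 and 7.06 log2). On the quantile normalized values described below, conditioned medium minus EGF was -0.15 log2 for Pax6 and -0.24 log2 for Rax. It was 0.04 log2 for Six3 and 0.07 log2 for Sox2.

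Voltage-gated channels open when the membrane potential changes. Sodium channels carry the upstroke of the action potential, calcium channels admit the calcium that triggers transmitter release, and voltage-gated potassium channels repolarise the cell. Inward rectifier and tandem pore domain potassium channels pass current near rest and set the resting potential. Retinal photoreceptors signal with graded potentials and release glutamate by way of a calcium channel built on Cacna1f, and ganglion cells fire action potentials.

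The deposited log2 values were shifted between arrays. Array medians (31099 probe sets) were 6.03 and 6.25 log2 for EGF against 6.84 and 6.56 log2 for conditioned medium, and the shift was uneven over the range of signal. Each gene was therefore tested on the deposited values, on median-centred arrays and on quantile normalized arrays. A gene is said to have risen or fallen only if limma's Benjamini-Hochberg adjusted p was under 0.05 in the same direction on all 3. Sizes are quantile normalized log2 differences, conditioned medium minus EGF, with limma's standard error (SE), and the adjusted p printed is the largest of the 3. As a measure of RNA quality, the actin control signal at the 3' end exceeded that at the 5' end by 1.99 and 2.08 log2 on the EGF arrays and by 1.54 and 1.37 log2 on the conditioned-medium arrays. This excess, larger in degraded RNA, moved with the condition in everything that follows, and its part in the results was not tested. With 2 arrays per group, the smallest p that an exact two-sided permutation test could give is 0.333, so no such test is given.

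Of the 111 channel genes 77 were bright enough to be tested, and the other 34 lay among the lowest 30% of all probe sets (a 4-array mean under 4.77 log2). Kcnv2, Cacna1f, Kcnip1 and Scn3b fell with conditioned medium, and Kcnk5, Kcnk13 and Kcnab3 rose. These are 7 of 77 channel genes (9.09%), and 10.9% of the 11491 genes tested passed the same rule. The 3 rises are 3.90% of the channel genes tested, beside 9.12% of all genes, and the 4 falls are 5.19%, beside 1.78% of all genes. The same shares of all genes stand beside each subfamily count of rises and falls below. After quantile normalization alone 4 channel genes were higher (5.19%, against 16.4% of all genes) and 24 were lower (31.2%, against 14.6% of all genes). On deposited values alone 21 were higher and 4 lower (40.4% and 1.78% of all genes), and on median-centred values alone 6 and 25 (10.2% and 32.2% of all genes). By at least 1 log2 with no overlap of the groups after quantile normalization 0 were higher (2.27% of all genes) and 2, Kcnv2 and Cacna1f, were lower (1.07% of all genes). The median difference of the 77 was -0.22 log2, beside 0.00 log2 over all genes, and it was 0.30 log2 as deposited, beside 0.40 log2. At an unadjusted limma p under 0.05 on all 3 scalings the counts were 6 higher and 5 lower, with Kcne4, Kcnk1, Kcnk12 and Kcnab1 added. No share of all genes is given for this unadjusted count, so it does not show an excess of channel genes. Kcne4 and Kcnk12 had EGF means under the dim limit, and only the conditioned-medium arrays brought them past the filter. A subfamily with 0 calls in the limma test also had 0 by the unadjusted count. The 7 called genes kept their direction without any 1 of the 4 arrays, but each of the 7 calls was lost without at least 1 array, which is named with each gene. The series description has a further batch of embryos for both conditions, and no label says that a replicate number marks a batch. With the replicate number as a block the 4 falls were lost (adjusted p = 0.0838 for Kcnv2, 0.166 for Cacna1f, 0.216 for Kcnip1 and 0.237 for Scn3b), and the 3 rises stood.

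**Figure D1:**
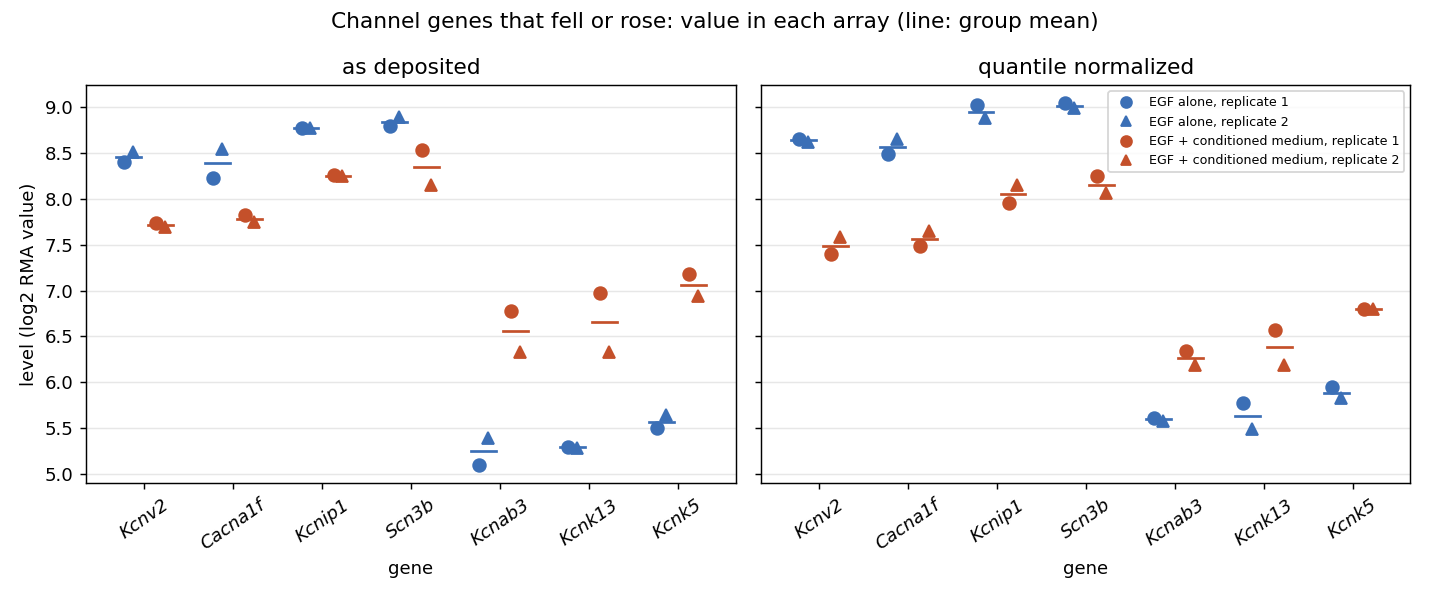
Level (log2 RMA value) of the 7 channel genes that fell or rose, in each of the 4 arrays, as deposited (left) and after quantile normalization (right). Circles are replicate 1, triangles replicate 2, blue is EGF alone, orange is EGF with conditioned medium, and lines are group means. In both panels the groups of each gene lie apart, the 4 genes that fell by 0.86 to 1.15 log2 at the left and the 3 that rose by 0.67 to 0.91 log2 at the right (quantile normalized).

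**Figure D2:**
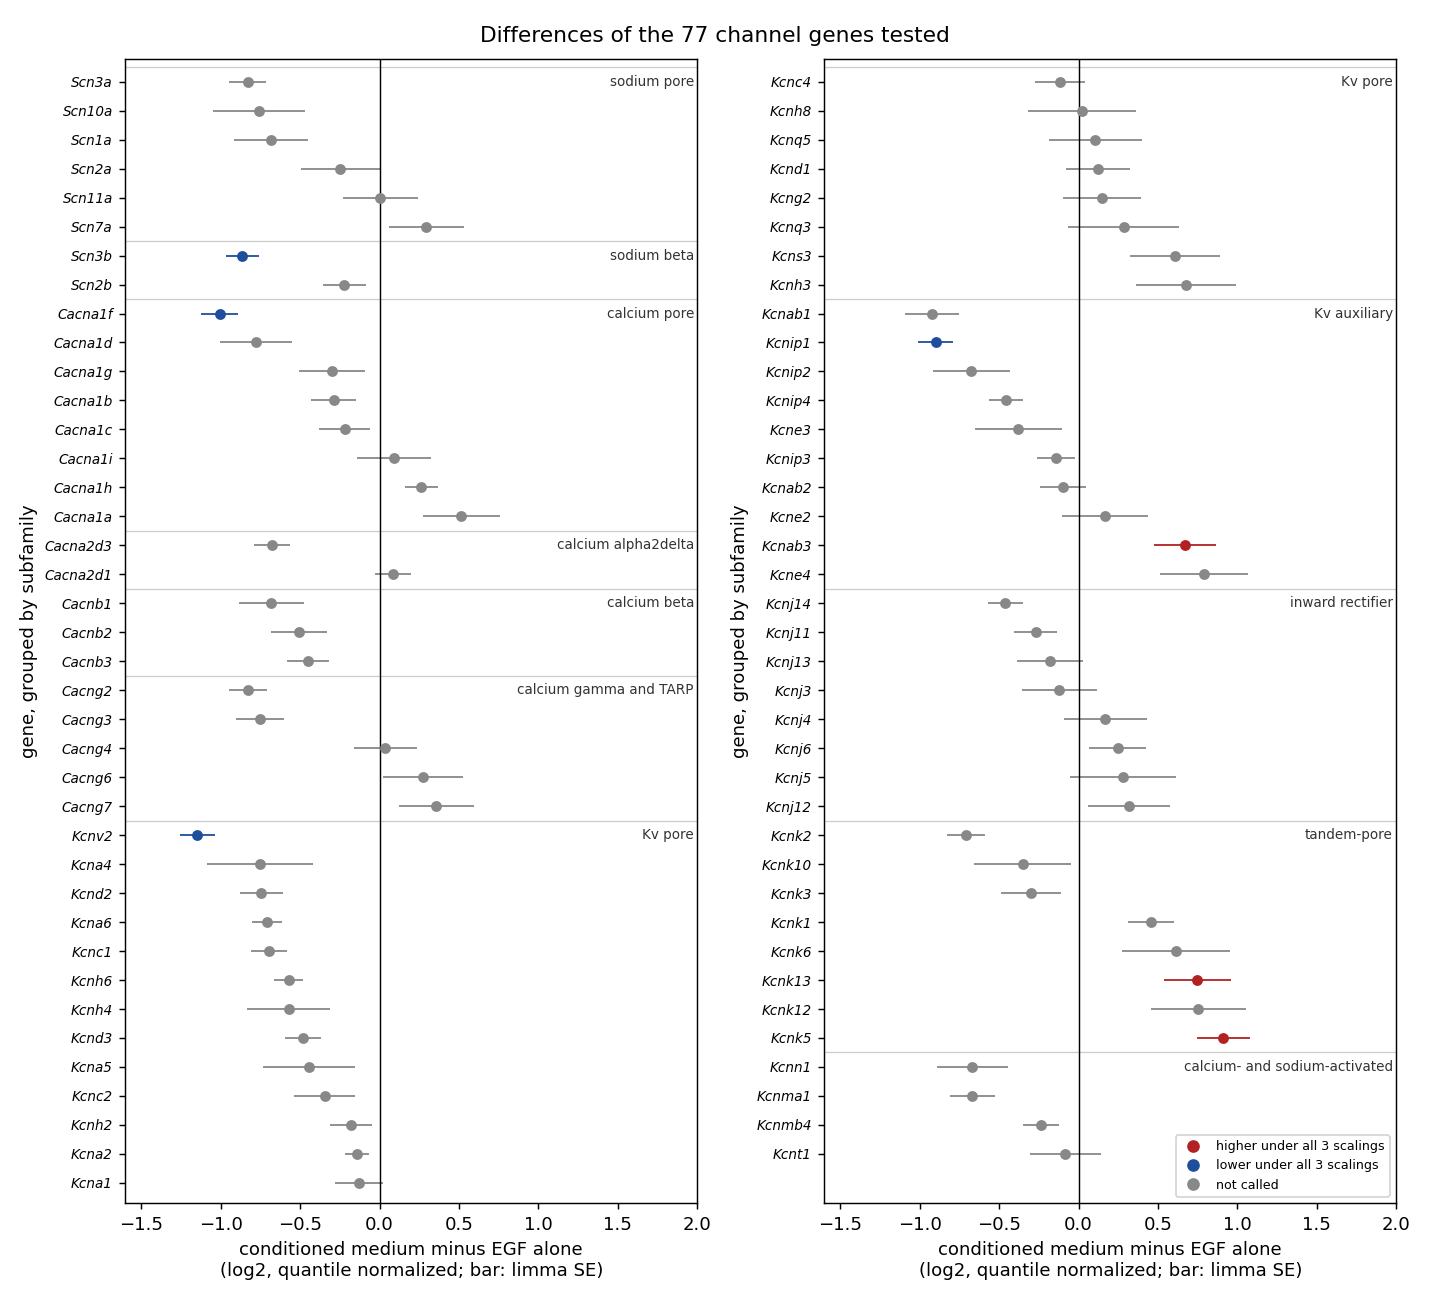
Difference of each of the 77 channel genes tested, conditioned medium minus EGF alone in quantile normalized log2, grouped by subfamily, with bars of 1 limma SE (n = 2 per group). Blue genes fell and red genes rose on all 3 scalings. Grey genes were not called, and 49 of all 77 points (63.6%) lie below 0, beside 49.6% of all genes.

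Among pore-forming subunits of voltage-gated potassium channels, the tetramer-forming family that repolarises neurons, Kcnv2 fell, and of the other 20 tested 0 rose and 0 fell. Kcnv2 encodes a silent subunit that joins other potassium channel subunits in photoreceptors and shapes their response to light. It was measured at 8.41 and 8.51 log2 with EGF and at 7.74 and 7.70 log2 with conditioned medium as deposited. Both conditioned-medium arrays lay below both EGF arrays. The difference was -1.15 ± 0.11 log2 (SE, n = 2 per group), a 2.22-fold fall (limma adjusted p = 1.57e-03). The call was lost without EGF replicate 2 (adjusted p = 0.0509), and it was lost with the mean of its probe sets (adjusted p = 0.340), where the other one is dim (4.36 log2 over the 4 arrays).

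Cacna1f fell beside it, the pore of the L-type calcium channel at the ribbon synapses of photoreceptors and bipolar cells. Its values were 8.23 and 8.55 log2 with EGF and at 7.82 and 7.75 log2 with conditioned medium as deposited. The lower EGF array was still above the higher conditioned-medium array. The difference was -1.01 ± 0.12 log2 (SE, n = 2 per group), a 2.01-fold fall (limma adjusted p = 0.0105). The call stood without EGF replicate 1 and was lost without EGF replicate 2 (adjusted p = 0.202) and without either conditioned-medium array (adjusted p = 0.0713 for replicate 1 and 0.0588 for replicate 2).

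Of the other genes listed for photoreceptors, the calcium channel beta subunit Cacnb2, which carries the pore to the membrane, was measured at 6.09 and 6.23 log2 with EGF and at 6.41 and 6.10 log2 with conditioned medium as deposited. Its groups overlapped as deposited, its difference was -0.51 ± 0.18 log2 after quantile normalization (SE) and 0.09 log2 as deposited, and it was not called. In the same arrays 5 of 6 tested photoreceptor markers fell (Crx, Opn1sw, Pdc, Rom1 and Sag, not Rcvrn), and the 6 averaged 9.28 and 9.31 log2 on the EGF arrays against 8.15 and 7.95 log2 on the conditioned-medium arrays as deposited. In such bulk RNA fewer cells of a type and less RNA per cell cannot be told apart, and the part of cell composition in the fall of Kcnv2 and Cacna1f was not tested.

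The sequences before the start sites of these photoreceptor genes are shown because both fell together, and that of Kcnk5 because it rose most (RefSeq, build GRCr8, the 250 bases before the annotated start, 5' to 3' on the gene's strand). Promoter entries matched 78 of the 111 genes by gene identifier. For Kcnv2 (chr1:234412924-234413173, plus strand) and Cacna1f (chrX:17568309-17568558, minus strand) capitals mark TAATC or its reverse GATTA, the core bound by the photoreceptor homeodomain factors CRX and OTX2. For Kcnk5 (chr15:4171375-4171624, plus strand) capitals mark GGGCGG, the GC box bound by SP factors.
Kcnv2: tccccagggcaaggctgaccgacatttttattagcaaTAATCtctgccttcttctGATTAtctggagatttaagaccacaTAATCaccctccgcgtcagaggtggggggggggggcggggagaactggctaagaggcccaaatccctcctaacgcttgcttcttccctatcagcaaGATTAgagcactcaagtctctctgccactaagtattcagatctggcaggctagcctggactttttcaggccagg
Cacna1f: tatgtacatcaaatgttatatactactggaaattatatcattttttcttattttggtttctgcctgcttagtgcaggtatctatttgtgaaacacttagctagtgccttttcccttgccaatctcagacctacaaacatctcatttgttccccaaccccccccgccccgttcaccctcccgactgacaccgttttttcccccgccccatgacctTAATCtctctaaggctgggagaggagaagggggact
Kcnk5: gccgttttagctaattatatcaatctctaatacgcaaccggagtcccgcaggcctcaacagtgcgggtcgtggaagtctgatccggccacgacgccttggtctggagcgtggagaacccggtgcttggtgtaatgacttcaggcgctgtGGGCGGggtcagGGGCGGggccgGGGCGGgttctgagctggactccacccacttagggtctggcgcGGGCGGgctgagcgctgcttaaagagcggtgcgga
TAATC on either strand occurred 4 times before Kcnv2, 1 time before Cacna1f and 1 time before Kcnab3, which rose. It occurred 0 times before Kcnk5 and Kcnk13, which rose, and 0 times in both promoters of Kcnip1, which fell. Of 33469 promoters of the same length 20.5% held it at least 1 time and 0.469% held it 3 or more times, and of the 87 promoter entries of the channel genes 12 (13.8%) held it. The longer TAATCC, which contains it, was in neither sequence, in 2 of the 87 and in 6.34% of all promoters. GGGCGG on either strand occurred 4 times before Kcnk5, 2 times before Cacna1f and 1 time before Kcnv2. It occurred 0 times before Kcnk13 and Kcnab3, which rose, and 0 and 1 times in the promoters of Kcnip1. It was held by 52.9% of the channel gene promoters and by 30.5% of all, and 7.41% of all held it 3 or more times. TCAGCACC, a piece of the element bound by the neuronal gene repressor Rest, was held by 3.45% and 1.25%. A match describes these letters only.

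The remaining voltage-gated potassium pore genes were not called. The 4 of them with the smallest p passed the threshold as lower on quantile normalized and median-centred values, and missed it as deposited. They are Kcnd2, which carries fast inactivating current in dendrites (-0.74 ± 0.14 log2, SE, adjusted p = 0.186), Kcna6, a Shaker-type delayed rectifier (-0.71 ± 0.09 log2, adjusted p = 0.126), Kcnc1, a Shaw-type channel of fast-firing neurons (-0.70 ± 0.11 log2, adjusted p = 0.293), and Kcnh6, an ether-a-go-go related channel (-0.57 ± 0.09 log2, adjusted p = 0.316). As deposited these 4 differed by -0.34 to -0.22 log2, so the direction was the same and the size smaller. In each of them both conditioned-medium arrays lay below both EGF arrays on either scale. Kcna6, for example, was at 8.71 and 8.88 log2 with EGF and at 8.53 and 8.37 log2 with conditioned medium as deposited. Because these genes were taken by small p after quantile normalization, the lack of overlap is no added support. On that scale 32.6% of all genes had it in this direction.

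Kcnd3, related to Kcnd2, differed by -0.48 log2 in its brightest probe set and -0.54 log2 in the next, and by 0.74 log2 in a dim one (4.63 log2 over the 4 arrays). The highest differences were those of Kcnh3 (0.68 ± 0.32 log2, SE) and Kcns3 (0.61 ± 0.28 log2), neither called. The axonal channels Kcna1 (-0.13 ± 0.15 log2) and Kcna2 (-0.14 ± 0.08 log2) lay close to 0. Kcna2 illustrates the shift between arrays: as deposited it was at 9.87 and 10.01 log2 with EGF and at 10.22 and 10.02 log2 with conditioned medium, above the EGF arrays, and after quantile normalization both conditioned-medium arrays lay below them. Kcna5, a delayed rectifier also found in muscle, had EGF arrays far apart, at 9.43 and 8.27 log2 against 8.85 and 8.68 log2 under conditioned medium as deposited. Without EGF replicate 2 it was the only channel gene called lower. Kcna5, Kcnh3 and Kcns3 were named after their values were seen.

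Auxiliary subunits bind the pore subunits and set their speed and number at the membrane. Of 10 tested, Kcnip1 fell, Kcnab3 rose and 8 were not called. Kcnip1, a calcium-binding partner of the Kcnd channels, was at 8.78 and 8.78 log2 with EGF and at 8.26 and 8.25 log2 with conditioned medium as deposited. Arrays of 1 condition nearly coincided on that scale. Its difference was -0.90 ± 0.11 log2 (SE, n = 2 per group), a 1.86-fold fall (limma adjusted p = 0.0199). A dimmer probe set differed by -0.57 log2 after quantile normalization and 0.09 log2 as deposited, and with the mean of its probe sets the call was lost (adjusted p = 0.982). The call was also lost without the intensity trend (adjusted p = 0.0566) and without any 1 of the 4 arrays (adjusted p = 0.0786 to 0.187).

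Kcnab3, a cytoplasmic beta subunit of Shaker-type channels, was at 5.10 and 5.39 log2 with EGF and at 6.78 and 6.33 log2 with conditioned medium as deposited. Both conditioned-medium arrays lay above both EGF arrays. The difference was 0.67 ± 0.19 log2 (SE, n = 2 per group), a 1.59-fold rise (limma adjusted p = 0.0230). The call was lost without any 1 of the 4 arrays (adjusted p = 0.0870 to 0.160). Its relative Kcnab1 lay the other way in its brightest probe set, from 7.90 and 7.71 to 7.21 and 7.44 log2 as deposited, a difference of -0.92 ± 0.17 log2 (SE) that missed the threshold as deposited (adjusted p = 0.0596). A dimmer Kcnab1 probe set (5.82 log2 over the 4 arrays) differed by 0.54 log2, so the probe sets of Kcnab1 had opposite signs.

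Among the other relatives of Kcnip1, Kcnip4 differed by -0.46 ± 0.11 log2 (SE) and Kcnip2 by -0.68 ± 0.24 log2, with -0.06 and 0.06 log2 as deposited, and neither was called. Kcne4, a single-span subunit that inhibits some potassium channels, was at 4.31 and 4.24 log2 with EGF and at 6.04 and 5.63 log2 with conditioned medium as deposited. Its difference of 0.79 ± 0.28 log2 (SE) missed the threshold (adjusted p = 0.0517), and its EGF mean was below the limit for dim probe sets.

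Tandem pore domain channels, the leak channels that hold the resting potential, had 2 rises and 0 falls among 8 tested. These are 25% and 0%, beside 9.12% and 1.78% of all genes, in a subfamily too small to give a direction. Kcnk5, an acid-sensitive leak channel that also serves volume regulation, rose most of all channel genes. It was at 5.50 and 5.64 log2 with EGF and at 7.18 and 6.94 log2 with conditioned medium as deposited. The lowest conditioned-medium array was above the highest EGF array. The difference was 0.91 ± 0.17 log2 (SE, n = 2 per group), a 1.88-fold rise (limma adjusted p = 1.97e-03). The call stood without either EGF array and was lost without conditioned-medium replicate 1 or 2 (adjusted p = 0.0627 and 0.0537).

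Kcnk13, a leak channel best known from microglia, was at 5.29 and 5.29 log2 with EGF and at 6.98 and 6.33 log2 with conditioned medium as deposited. The groups lay apart. The difference was 0.75 ± 0.21 log2 (SE, n = 2 per group), a 1.68-fold rise (limma adjusted p = 0.0208), lost without any 1 of the 4 arrays (adjusted p = 0.0721 to 0.215). In the same arrays 3 of 4 tested microglia and leukocyte markers rose (Ptprc, Aif1 and Csf1r, not Cd68), and Itgam was too dim to be tested. The EGF means of Ptprc and Aif1 (4.21 and 4.46 log2 as deposited) were dim, and only the conditioned-medium arrays brought them past the filter. After quantile normalization the 5 averaged 5.06 and 5.16 log2 on the EGF arrays against 5.83 and 5.84 log2 on the conditioned-medium arrays. Of 7 smooth muscle, pericyte and fibroblast markers 5 rose (Acta2, Tagln, Pdgfrb, Col1a1 and Col1a2, not Des or Myh11), with an average of 5.92 and 5.89 against 7.03 and 7.19 log2 on the same scale. Of these Tagln had a dim EGF mean (4.25 log2 as deposited). The part of these cells in the rise of Kcnk13, Kcnk5 and Kcnab3 was not tested.

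Other tandem pore genes were not called. Kcnk1 was at 6.48 and 6.64 against 7.75 and 7.26 log2 as deposited. It passed the threshold as higher on deposited and quantile normalized values (0.46 ± 0.14 log2, SE) and missed it on median-centred arrays (largest adjusted p = 0.0551). Kcnk12 differed by 0.75 ± 0.30 log2 (SE) and Kcnk6 by 0.61 ± 0.34 log2, both from EGF means below the limit for dim probe sets. Kcnk2, a stretch- and lipid-gated leak channel present in Muller glia, lay the other way, at 7.75 and 8.10 log2 with EGF and at 7.69 and 7.59 log2 with conditioned medium as deposited. Its difference of -0.71 ± 0.12 log2 (SE) passed the threshold on quantile normalized and median-centred values and missed it as deposited (largest adjusted p = 0.255).

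Inward rectifiers, which pass potassium mainly into the cell, had 0 rises and 0 falls among 8 tested, and 7 more on the array were too dim. Kcnj14 passed the threshold as lower on quantile normalized (-0.46 ± 0.11 log2, SE) and median-centred values, and missed it as deposited (-0.06 log2). Kcnj11, the pore of the ATP-sensitive channel, differed by -0.27 ± 0.13 log2, Kcnj6, a channel opened by G proteins, by 0.25 ± 0.18 log2, Kcnj12 by 0.32 ± 0.26 log2 and Kcnj13, a channel of pigment epithelium, by -0.18 ± 0.21 log2. Kcnj10, the main channel through which Muller glia clear potassium, and Kcnj2 were dim on the array, so neither was tested. Of the calcium- and sodium-activated channels 4 were tested and 0 were called. Kcnma1, the large-conductance calcium-activated channel, differed by -0.67 ± 0.14 log2 (SE) after quantile normalization and -0.19 log2 as deposited, and its beta subunit Kcnmb4 by -0.23 ± 0.11 log2 and 0.13 log2. Kcnn1, a small-conductance calcium-activated channel, differed by -0.67 ± 0.22 log2 and the sodium-activated Kcnt1 by -0.08 ± 0.23 log2.

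Sodium channels drive action potentials, and their beta subunits anchor them and speed their gating. Among 8 sodium channel genes tested, the beta subunit Scn3b fell, and 0 of 6 pore subunits were called. Scn3b was at 8.80 and 8.89 log2 with EGF and at 8.54 and 8.15 log2 with conditioned medium as deposited. The groups did not overlap, and the conditioned-medium arrays stood further apart than the EGF arrays. The difference was -0.86 ± 0.10 log2 (SE, n = 2 per group), a 1.82-fold fall (limma adjusted p = 0.0257). Its other probe set, also bright (8.25 log2 over the 4 arrays), differed by -0.98 log2. The call stood without conditioned-medium replicate 1 and was lost without EGF replicate 1, EGF replicate 2 or conditioned-medium replicate 2 (adjusted p = 0.163, 0.166 and 0.285), and without the intensity trend (adjusted p = 0.0696).

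The sodium pore nearest to the threshold was Scn3a, the channel of embryonic neurons. It was at 7.76 and 7.81 log2 with EGF and at 7.49 and 7.28 log2 with conditioned medium as deposited, a difference of -0.83 ± 0.12 log2 after quantile normalization (SE) that was not called (largest adjusted p = 0.122). Scn1a, a channel of mature neurons, differed by -0.68 ± 0.23 log2 and 0.07 log2 as deposited, and Scn2a, of early axons, by -0.25 ± 0.25 log2 and 0.54 log2 as deposited. Scn10a, of sensory neurons, differed by -0.76 ± 0.29 log2, and Scn7a, a sodium sensor of glia, by 0.29 ± 0.24 log2. The other beta subunit tested, Scn2b, differed by -0.22 ± 0.14 log2. Of 10 genes tested on the list for ganglion cells and axons, Scn3b was called (fell), and the other 9 were not. After quantile normalization 9 of the 10 lay below 0 (90.0%, beside 49.6% of all genes), and as deposited 7 of the 10 lay above 0 (70.0%, beside 89.2% of all genes), so the direction of the list turned with the scaling. Kcnq3, a subunit of the current that limits repetitive firing, lay above 0 on either scale (0.28 ± 0.35 log2 after quantile normalization). Kcnc2, a fast-firing channel also on that list, differed by -0.35 ± 0.19 log2. In the same arrays 3 of 7 neuron markers fell (Tubb3, Snap25 and Elavl4), and the 7 averaged 10.3 and 10.5 log2 on the EGF arrays against 10.2 and 10.1 log2 on the conditioned-medium arrays as deposited. After quantile normalization they averaged 10.5 and 10.6 log2 against 9.9 and 10.0 log2, and all 7 lay below 0. Of 4 ganglion cell markers tested 1 rose (Rbpms, 1.33 ± 0.12 log2, SE, limma adjusted p = 2.20e-05) and 0 fell, and Pou4f1 was dim. These 5 averaged 6.32 and 6.33 log2 on the EGF arrays against 6.90 and 6.69 log2 on the conditioned-medium arrays as deposited. After quantile normalization they averaged 6.60 and 6.47 log2 against 6.54 and 6.59 log2. In the quantile normalized fit taken by itself 3 of the 4 tested were lower and 1, Rbpms, was higher. The part of either marker list in the fall of Scn3b and Kcnip1 was not tested.

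Of 8 calcium channel pore genes tested, Cacna1f was called (fell). Cacna1d, the L-type pore of other ribbon synapses and endocrine cells, was at 5.79 and 6.04 against 5.75 and 5.87 log2 as deposited. Its groups overlapped there. It passed the threshold as lower on quantile normalized (-0.78 ± 0.23 log2, SE) and median-centred values, and missed it as deposited. The widely expressed L-type pore Cacna1c differed by -0.22 ± 0.16 log2 and the N-type pore Cacna1b, which serves transmitter release, by -0.29 ± 0.14 log2. Cacna1h, a T-type pore opened by small depolarisations, averaged 8.52 ± 0.27 log2 under EGF against 9.13 ± 0.19 log2 with conditioned medium as deposited (SD, n = 2 per group), which left 0.26 ± 0.10 log2 (SE) once quantile normalized, not called. Cacna1a, the P/Q-type pore, differed by 0.51 ± 0.24 log2 in its brightest probe set, and its 4 other probe sets by -0.57 to 0.00 log2.

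Among the auxiliary calcium channel genes 0 of 10 tested were called. Cacna2d3, an extracellular subunit that promotes trafficking and synapse formation, was at 8.09 and 8.21 against 7.89 and 7.87 log2 as deposited (-0.68 ± 0.11 log2 after quantile normalization, SE, largest adjusted p = 0.256), and its relative Cacna2d1 differed by 0.08 ± 0.11 log2. The beta subunits Cacnb1 (-0.68 ± 0.20 log2) and Cacnb3 (-0.45 ± 0.13 log2) passed the threshold as lower on quantile normalized and median-centred values. Cacnb2 did so on quantile normalized values only. As deposited Cacnb1 and Cacnb3 differed by -0.12 and -0.01 log2. The gamma family includes partners of AMPA-type glutamate receptors. Of these Cacng2, at 7.76 and 8.09 against 7.69 and 7.36 log2 as deposited, differed by -0.83 ± 0.12 log2 (SE, largest adjusted p = 0.108) and by -0.14 log2 in a dimmer probe set, and Cacng3 by -0.75 ± 0.15 log2. Cacng7 (0.36 ± 0.24 log2) and Cacng6 (0.27 ± 0.25 log2) lay above 0.

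The direction of the channel genes varied with their level on the array. Of the 30 genes with a 4-array mean of at least 7 log2, 27 lay below 0 after quantile normalization (90.0%), with a median of -0.47 log2, beside 50.8% and 0.00 log2 for the 8669 genes of that level over all. As deposited the median of the 30 was -0.07 log2, beside 0.35 log2 for the 8669. Of the 47 tested genes under 7 log2, 22 lay below 0 (46.8%), with a median of 0.02 log2, beside 45.9% and 0.04 log2 over all genes. The split at 7 log2 was chosen after the values were seen. The 4 genes that fell had means above it and the 3 that rose had means below it.

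**Figure D3:**
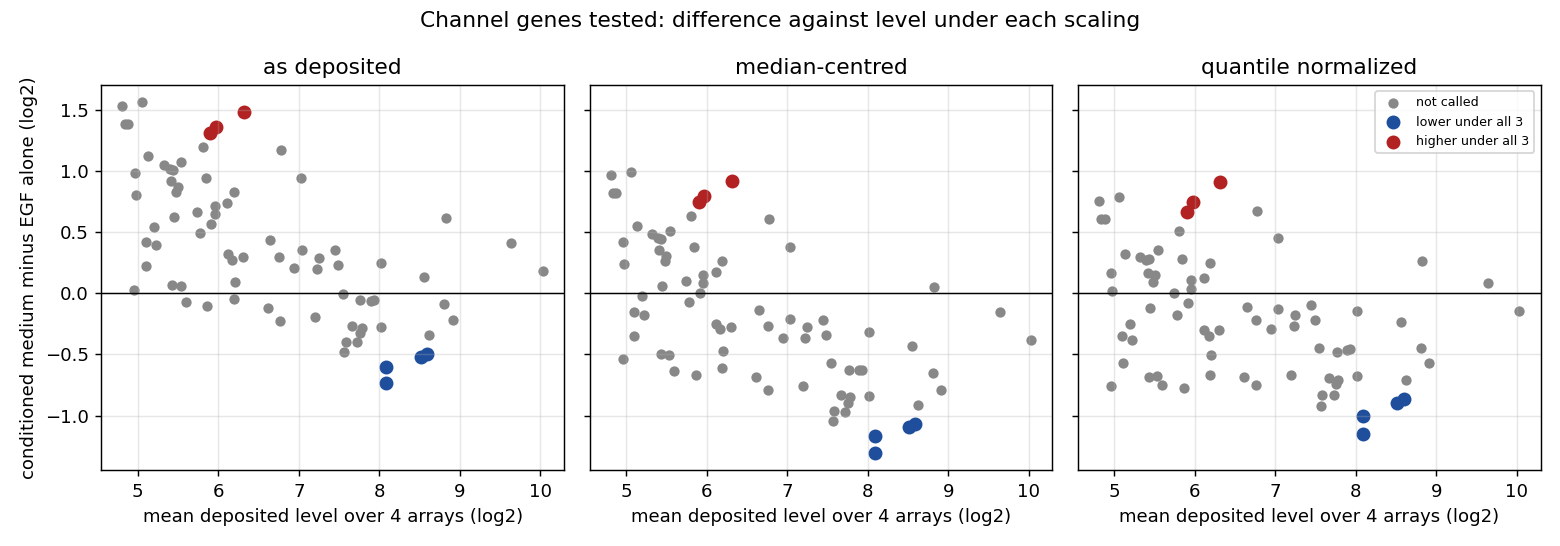
Difference of the 77 channel genes tested (conditioned medium minus EGF alone, log2) against their mean deposited level over the 4 arrays (log2), under each of the 3 scalings. Each point is a gene, blue for the 4 that fell, red for the 3 that rose and grey for the 70 not called. The cloud moves down from the deposited to the median-centred panel, and in the quantile normalized panel 27 of the 30 points at or right of 7 log2 lie below 0.

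Of the 77 genes tested, 7 (Kcne2, Kcne4, Kcnh8, Kcnj12, Kcnk6, Kcnk12 and Kcns3) had an EGF mean under 4.77 log2 and a conditioned-medium mean above it, and 0 had the reverse. Over all 11491 genes tested these counts were 651 and 7, so the one-sidedness was not particular to channel genes. The 34 dim genes ranged from 3.11 to 4.70 log2 in their 4-array means and differed by -0.95 to 0.73 log2, with a median of -0.10 log2. They include Scn8a, Scn9a, Kcnh1, Kcnh7, Kcnj8, Kcnj16, Kcnq1 and Kcnmb1, and their low signal says nothing of a change. After quantile normalization the groups did not overlap in 39 of the 77 with conditioned medium lower and in 15 with it higher, against 32.6% and 33.6% of all genes. The 111 genes had 178 probe sets, 69 genes had 1 only, and of 21 genes with several bright probe sets 5 had differences of both signs.

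Other genes of excitability were taken as 3 lists, whose shares called are given beside 10.9% of all genes. Of 16 tested partners and scaffolds of channels 1 (6.25%) was called, Fgf12, which fell. It encodes an intracellular FGF-like protein that binds sodium channels. Fgf12 was at 8.73 and 8.91 against 8.29 and 8.13 log2 as deposited, a difference of -0.98 ± 0.10 log2 (SE, limma adjusted p = 6.45e-03). This call was lost without EGF replicate 1, EGF replicate 2 or conditioned-medium replicate 2, and with the mean of its probe sets (adjusted p = 0.353). The ankyrin scaffolds Ank2 (0.09 ± 0.10 log2) and Ank3 (-0.04 ± 0.09 log2) lay close to 0.

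Of 15 tested ion pumps, exchangers and cotransporters 2 rose and 2 fell (26.7% called). The rise of Slc8a2 is in this count only because the conditioned-medium arrays brought it past the filter. Slc12a2, which loads cells with chloride and predominates in immature neurons, rose by 0.62 ± 0.06 log2 (SE, limma adjusted p = 9.80e-03), from 11.24 and 11.26 to 11.86 and 11.87 log2. Slc12a5, which extrudes chloride from mature neurons, fell by 0.75 ± 0.07 log2 (adjusted p = 0.0317), from 10.64 and 10.73 to 10.33 and 10.19 log2 as deposited. These chloride transporters thus moved in opposite directions. The potassium-dependent sodium-calcium exchanger of cones, Slc24a2, fell by 0.78 ± 0.09 log2 (adjusted p = 0.0437). The sodium-calcium exchanger Slc8a2 rose (adjusted p = 0.0340) from a dim EGF mean (4.36 log2 as deposited), so no size is given for it. The calls of Slc12a5, Slc24a2 and Slc8a2 were lost without any 1 of the 4 arrays (adjusted p = 0.141 to 0.199, 0.142 to 0.285 and 0.0941 to 0.174), and that of Slc12a2 without EGF replicate 2 (adjusted p = 0.0608). Without the intensity trend Slc12a5 and Slc24a2 were not called (adjusted p = 0.127 and 0.115). With the replicate block Slc12a5, Slc24a2, Slc8a2 and Fgf12 were not called (adjusted p = 0.284, 0.291, 0.0539 and 0.148).

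Of 19 other cation channels tested 2 (10.5%) were called. The mechanically gated channel Piezo1 rose by 1.16 ± 0.14 log2 (SE, limma adjusted p = 1.56e-04), from 5.96 and 6.09 to 7.79 and 7.60 log2 as deposited, and this call stood without any 1 of the 4 arrays. The rod channel subunit Cnga1 fell, from 5.79 and 6.39 to 4.40 and 4.28 log2 as deposited (limma adjusted p = 2.62e-04). Both conditioned-medium values were below 4.77 log2 and only the EGF arrays brought it past the filter, so no size is given. The call was lost without EGF replicate 2 (adjusted p = 0.0559). The sodium leak channel Nalcn (-0.36 ± 0.09 log2) and its partners Unc79 (-0.54 ± 0.10 log2) and Unc80 (-0.70 ± 0.14 log2) were not called. They passed the threshold as lower on quantile normalized and median-centred values, and missed it as deposited. These 3 were named after their values were seen, as were Ank2 and Ank3.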

How the data were processed

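Total RNA of 4 neurosphere cultures was hybridised to an Affymetrix rat array. Per the labels, the authors made RMA summaries (robust multi-array average, in GenePattern) and deposited log2 values. The version and the normalization options are not given in the sources used here. Probe sets were named by the platform annotation (20832 with 1 symbol, 436 with several, 9831 with none), and the 111 channel genes all matched the RefSeq table of GRCr8 by gene identifier. The 57 control probe sets were left out of the genes. The lowest 30% of probe sets by 4-array mean were left out as dim. limma 3.58.1 in R 4.3.3 (lmFit, eBayes with intensity trend, no block) was fitted to all 11491 genes on 3 scalings and tested on simulated data. Replicates were not paired in the fit. With 2 arrays per group, the number of arrays limits the precision.

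The members and lists were chosen with earlier results of these data known. Named are all called genes, the 4 uncalled with the smallest p in each subfamily, those listed for retinal sites, those whose probe sets lay beyond 0.5 log2 in both directions, and up to 4 called genes of each related list. Other scalings, filters, probe set rules, variance models, blocks and left-out arrays were tried.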

Additional observations from a re-analysis of the deposited data

How the results depend on the processing

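The 3 rises and 4 falls depended on the processing. The rises numbered 21 on deposited values alone, 6 on median-centred values alone, 5 with no filter on dim probe sets, 1 (Kcnk1) with the lowest 50% left out, 6 with the mean of all probe sets, 6 without the intensity trend, and 0 by the rule of at least 1 log2 with no overlap, which gave 2 falls. The falls numbered 25 on median-centred and 24 on quantile normalized values alone, 2 with the mean of all probe sets and 2 without the trend. Over all genes the rises and falls numbered 1048 and 205 by the main rule and 1050 and 202 with no filter. They numbered 866 and 198 with the lowest 50% left out. The mean of all probe sets gave 1053 and 149, and the fit without the trend gave 925 and 130. Leaving out any 1 array gave fewer rises and fewer falls, among the channel genes and over all genes alike. With the replicate block there were 4 rises and 0 falls, and all genes gave 1026 and 28 calls. The labels do not say that a replicate number marks a shared pool, and the deviations of same-numbered arrays correlated at -0.12 (deposited) and -0.03 (quantile normalized) across genes. The crossed replicate block, added after seeing the data, gave 4 rises and 9 falls, beside 1174 and 441 over all genes. The cause of these shifts was not tested, except that the stricter filter left out Kcnk5, Kcnk13 and Kcnab3. On deposited values limma's prior left no spread of a gene's own, so those p-values rest on pooling over genes. No named gene past the threshold in any fit changed sign against the reported direction.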
